A study of Mus musculus with 4 samples.

Results

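Cd200 and Cd200r1 encode a membrane ligand and its inhibitory receptor, and they were followed in single myeloid cells of B16-F10 mouse melanomas injected with adenoviruses. Both genes were matched by symbol among the 32285 genes of the count matrices, so the members are 2 of 32285. The pair was chosen by its UMI counts per class and library in these same data, so every value of theirs given here is a description without a test. CD200 is an immunoglobulin-superfamily glycoprotein with a short cytoplasmic tail that does not itself signal. Its receptor CD200R1 sits on myeloid cells. When bound, the receptor recruits the adaptor DOK2 and through it RasGAP (Rasa1), which restrains Ras signalling and cytokine release. The adaptor DOK1, CRKL and the inositol phosphatase SHIP-1 (Inpp5d) are further partners in the pathway. In tumors, Cd200 is known as a gene of mature dendritic cells (DCs), the Ccr7-expressing DCs that carry maturation and immunoregulatory genes together.

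The groups were Ad-COMBO, labelled as a mixture of the ISF35 and mIFNB adenoviruses, Ad-mIFNB, labelled mIFNB, Ad-MEM40, whose treatment label reads ISF35, and Ad-Null, the null adenovirus. ISF35 is a CD40 ligand construct and mIFNB stands for mouse interferon beta. All groups shared C57BL/6 hosts that received 500000 B16-F10 melanoma cells subcutaneously, an injection into the tumor on day 12, and a sort for CD11c and MHC-II. The time from injection to harvest and the age of the mice are not given in the sources used here. Each group is 1 library pooled from 3 tumors, so no spread between samples exists, no test was possible, and every bracketed 95% interval covers counting error only, not differences between cells, tumors or libraries.

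Barcodes with at least 500 genes and at most 10% mitochondrial UMIs (unique molecular identifiers, 1 per captured RNA molecule) numbered 671 of 954 in Ad-COMBO, 1810 of 2076 in Ad-mIFNB, 15656 of 18185 in Ad-MEM40 and 8745 of 11308 in Ad-Null. Median depth ran between 9483 UMIs per cell in Ad-MEM40 and 15277 in Ad-Null. The Ad-MEM40 and Ad-Null libraries shared 63 barcode sequences, 41 of them passing, and other pairs shared at most 11. Although every sample is labelled as DC, C1q-expressing macrophage-like cells made up 12.4% of Ad-COMBO, 11.2% of Ad-mIFNB, 23.1% of Ad-MEM40 and 15% of Ad-Null cells. Melanoma-like cells, which the sort should remove, were at most 1.55% of cells.

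All 5 genes of the family lie on chromosome 16 of GRCm38 in the GENCODE M21 annotation. Cd200r1 (ENSMUSG00000022667, 44765736 to 44794978, plus strand) is followed in the same orientation by Cd200r4 (44811733 to 44839150), Cd200r2 (44867097 to 44915840) and Cd200r3 (44943678 to 44981380). Cd200 (ENSMUSG00000022661, 45382135 to 45409053) is transcribed from the minus strand, and 587 kilobases separate the end of Cd200r1 from it. The ligand shares no 50-base word of its transcripts with any receptor gene. Cd200r1 shares 40 of its 3439 distinct 50-base words (1.16%) with Cd200r4 and none with Cd200r2 or Cd200r3. Only a read lying wholly within shared sequence could not be assigned between Cd200r1 and Cd200r4, and read length was not examined.

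RefSeq promoter sequences for this build were at hand for 4 of these genes, and not for Cd200r1. The 250 bases before the start of Cd200 (chr16:45409054-45409303, minus strand) are shown because, of the pair, the ligand differed more between libraries. Capitals mark its GC box, the letters GGGCGG.
Cd200: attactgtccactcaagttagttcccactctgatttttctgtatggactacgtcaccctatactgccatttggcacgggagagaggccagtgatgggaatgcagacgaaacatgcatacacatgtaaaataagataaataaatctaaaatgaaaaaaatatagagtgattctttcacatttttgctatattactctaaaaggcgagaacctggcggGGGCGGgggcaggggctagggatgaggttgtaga
Searched on both strands, this window held 1 GC box, as 32.7% of the 32851 windows of the same length in the table hold at least 1. It held no interferon-response-type match (GAAA and GAAA with any 2 bases between, in 3.0% of windows), no STAT-type TTCNNNGAA (7.0%) and no NF-kB-type match (GGG and CC with any 5 bases between, 45.8%). These are letter matches in a short window, and none of them is a measured binding site. Beside them, the Cd200r4 window held 1 NF-kB-type match and the windows of Cd200r2 and Cd200r3 held none of the 4 motifs.

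The windows before Cd200r4 (chr16:44820478-44820727, a start within the annotated gene) and Cd200r3 (chr16:44943428-44943677), both on the plus strand, are shown because these receptor genes were both higher in macrophage-like cells of the 2 libraries whose label includes mIFNB. Capitals mark runs of at least 12 bases that the windows share.
Cd200r4: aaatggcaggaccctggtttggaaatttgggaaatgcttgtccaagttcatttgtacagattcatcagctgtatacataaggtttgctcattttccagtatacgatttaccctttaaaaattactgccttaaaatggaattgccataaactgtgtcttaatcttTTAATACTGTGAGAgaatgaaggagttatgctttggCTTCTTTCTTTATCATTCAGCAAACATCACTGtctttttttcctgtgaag
Cd200r3: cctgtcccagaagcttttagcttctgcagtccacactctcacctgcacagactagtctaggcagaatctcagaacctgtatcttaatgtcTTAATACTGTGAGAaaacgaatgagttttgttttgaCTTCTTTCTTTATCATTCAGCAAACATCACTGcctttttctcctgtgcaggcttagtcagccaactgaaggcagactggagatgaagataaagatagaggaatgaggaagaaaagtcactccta
Aligned, 139 of 176 positions were identical (79.0%), over 70.4% of the window, with a longest shared run of 32 bases. The same alignment of Cd200r2 with Cd200r4 gave 55.3% identity, and that of Cd200r2 with Cd200r3 gave 55.2%.

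Over all passing cells the ligand was highest in the mixture. Cd200 stood at 101 CPM (UMIs of the gene scaled to the same total of UMIs in each sum) in Ad-COMBO (94.8 to 108), 45.1 in Ad-mIFNB (42.7 to 47.7), 28.0 in Ad-MEM40 (27.3 to 28.8) and 24.4 in Ad-Null (23.6 to 25.1). The 4 intervals do not overlap, and these rest on 985, 1288, 5100 and 3919 UMIs. With 5 CPM added to both sides, the log2 ratio to Ad-Null was 1.85 for Ad-COMBO (1.73 to 1.98), 0.77 for Ad-mIFNB (0.66 to 0.88) and 0.17 for Ad-MEM40 (0.10 to 0.24). These 3 comparisons share the Ad-Null library. At the 1.5-fold limit used throughout, Ad-COMBO and Ad-mIFNB lay above Ad-Null for Cd200 and Ad-MEM40 lay within the limit. At that limit 5.98% of 15477 genes were higher in Ad-COMBO than in Ad-Null, 2.65% of 15627 in Ad-mIFNB and 0.776% of 16761 in Ad-MEM40. Ad-COMBO exceeded Ad-mIFNB by 1.08 on the log2 scale (0.92 to 1.24), where 2.66% of genes were higher and 0.631% lower. It exceeded Ad-MEM40 by 1.68 (1.56 to 1.80), where 5.45% of genes were higher and 4.82% lower.

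The receptor did not pass 1.5-fold in any of the 5 comparisons over all cells. Cd200r1 was at 35.0 CPM in Ad-COMBO (31.4 to 38.9), 50.6 in Ad-mIFNB (48.1 to 53.3), 40.9 in Ad-MEM40 (40.0 to 41.9) and 51.1 in Ad-Null (50.0 to 52.2). The log2 ratio to Ad-Null was -0.49 for Ad-COMBO, -0.01 for Ad-mIFNB and -0.29 for Ad-MEM40. The Ad-mIFNB and Ad-Null intervals overlap, and those of Ad-COMBO and Ad-MEM40 lie below both. With each cell's own CPM averaged in place of the sum, the ratio of Ad-COMBO was -0.86 to Ad-Null and -0.70 to Ad-mIFNB, past 1.5-fold. By summed CPM against Ad-Null, 3.22% of genes were at least 1.5-fold lower in Ad-COMBO, 1.41% in Ad-mIFNB and 0.34% in Ad-MEM40. In a sum over all cells, fewer cells of a type and less RNA per cell cannot be told apart, so both genes were next read class by class.

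**Figure D1:**
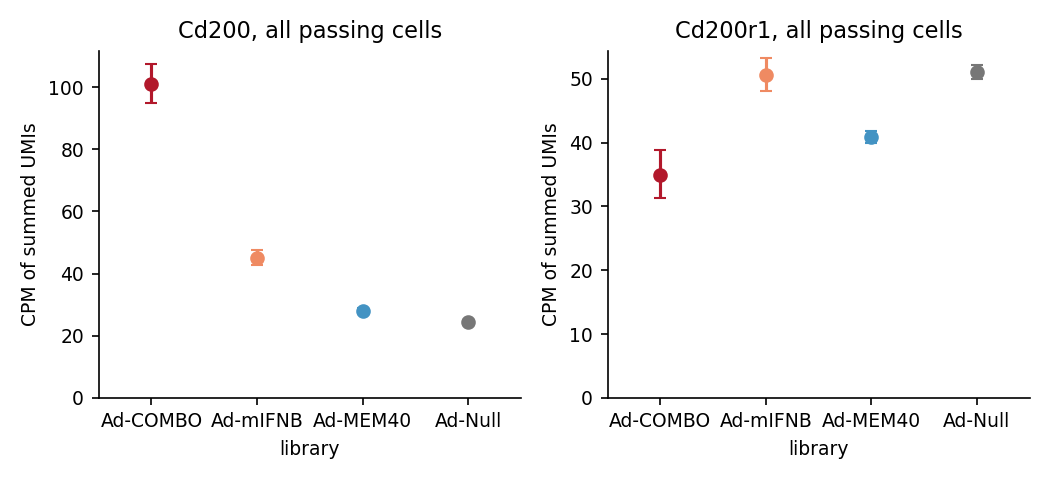
CPM of Cd200 (left) and Cd200r1 (right) over all passing cells, 1 point per library, with exact Poisson 95% intervals. Cd200 is at 101 CPM in Ad-COMBO against 24.4 in Ad-Null, whereas Cd200r1 lies between 35.0 and 51.1 CPM in the 4 libraries.

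Classes were gated on markers that include neither gene. A cell needed at least 3 UMIs of each of 2 markers of a class (3 markers for macrophages), and cells meeting more than 1 gate were set apart. The gates left 35.9% of cells of Ad-COMBO, 43.9% of Ad-mIFNB, 38.4% of Ad-MEM40 and 31.4% of Ad-Null without a class. No cell met the B cell, neutrophil, mast cell or endothelial gate as its only gate.

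Mature DC-like cells (Ccr7, Fscn1, Ccl22 and related markers) held more of the ligand than any other class. Their Cd200 level was 516 CPM in Ad-COMBO (480.3 to 555), 358 in Ad-mIFNB (335 to 383), 336 in Ad-MEM40 (323 to 350.2) and 289.6 in Ad-Null (276 to 304), in 131, 189, 841 and 403 cells. The neighbours Ad-mIFNB and Ad-MEM40 overlap in this order, and Ad-COMBO stood above the other 3. Cd200 was also among the 10 leading genes of the class, after Fscn1, Ccl5, Ccr7, Il12b, Ccl22, Cacnb3 and Il4i1, of which Il12b encodes the p40 chain of interleukin-12 and Ccl5 a T cell attracting chemokine. Mature DC-like cells carried 77.0% of all Cd200 UMIs in Ad-COMBO, 70.3% in Ad-mIFNB, 46.0% in Ad-MEM40 and 42.1% in Ad-Null. Cells that met the mature gate and another gate held a further 14.3%, 18.6%, 31.5% and 35.8%, in the same order.

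Against Ad-Null, the log2 ratio of Cd200 within mature DC-like cells was 0.82 for Ad-COMBO (0.65 to 0.99), 0.30 for Ad-mIFNB (0.14 to 0.46) and 0.21 for Ad-MEM40 (0.09 to 0.34). Summed mature DC markers, 8 of 8 detected in each library, moved with it in part, at 7169 CPM in these cells of Ad-COMBO, 5384 in Ad-mIFNB, 6517 in Ad-MEM40 and 5449 in Ad-Null. Macrophage markers summed to 81.8, 90.6, 320.1 and 185 CPM in the same order, with Lyve1 at 0 in all but Ad-MEM40, cDC2 markers to 130.1, 260, 278 and 303, and monocyte markers to 1034, 1770.4, 791 and 719. Their part in the result was not tested. Only Ad-COMBO passed 1.5-fold among these 3, and 11.5% of 9635 genes were as much higher in the same cells of Ad-COMBO. In mature DC-like cells the corresponding shares were 5.51% for Ad-mIFNB, with 4.16% lower, and 1.81% for Ad-MEM40. Ad-COMBO lay 0.52 above Ad-mIFNB (0.32 to 0.72), within 1.5-fold where 9.42% of genes were past it. It lay 0.61 above Ad-MEM40 (0.45 to 0.77), just past the limit as 9.95% of genes were. That last value was 0.49 with called doublets left out and 0.51 with each cell's CPM averaged, both within the limit. Counting every cell that met the mature gate, whatever other gate it met, gave 1.41 for Ad-COMBO and 0.71 for Ad-mIFNB against Ad-Null, and 0.70 for Ad-COMBO against Ad-mIFNB. Cells that met the mature gate and another gate held 7.71% of all UMIs in Ad-COMBO, 7.34% in Ad-mIFNB and 9.17% in Ad-Null. Mature DC-like cells held 15.1%, 8.86% and 3.54%. Cd200 in the cells of several gates was 188, 114 and 95.1 CPM. The mix of these cells thus differed between libraries, and its part in the result was not tested.

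The share of mature DC-like cells with at least 1 Cd200 UMI overlapped between all libraries. It was 73.3% in Ad-COMBO (64.9 to 80.6), 69.3% in Ad-mIFNB (62.2 to 75.8), 70.5% in Ad-MEM40 (67.3 to 73.6) and 71.7% in Ad-Null (67.0 to 76.1), at median depths of 9317, 11116, 7330 and 12646 UMIs. In melanoma-like cells, a class outside the sort, 5.37% had a Cd200 UMI in Ad-MEM40 and 5.71% in Ad-Null, at far greater depths of 47132 and 80230 UMIs. Whether melanoma-like cells make Cd200 RNA themselves was not tested. Ad-COMBO had 2 of them and Ad-mIFNB 7, too few for such a share. With every cell thinned to 2000 UMIs, the mature DC-like share was 48.8% in Ad-COMBO, 41.9% in Ad-mIFNB, 43.7% in Ad-MEM40 and 36.3% in Ad-Null. The thinned intervals of Ad-COMBO (39.9 to 57.8) and Ad-Null (31.6 to 41.3) overlap slightly. In cells with a UMI, Cd200 took a median of 5.48 per 10000 UMIs in Ad-COMBO, 4.52 in Ad-mIFNB, 4.06 in Ad-MEM40 and 3.28 in Ad-Null. The quartiles were 2.76 and 8.82 in Ad-COMBO against 1.75 and 6.41 in Ad-Null, so the distributions overlap while the median and both quartiles were higher in Ad-COMBO.

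**Figure D2:**
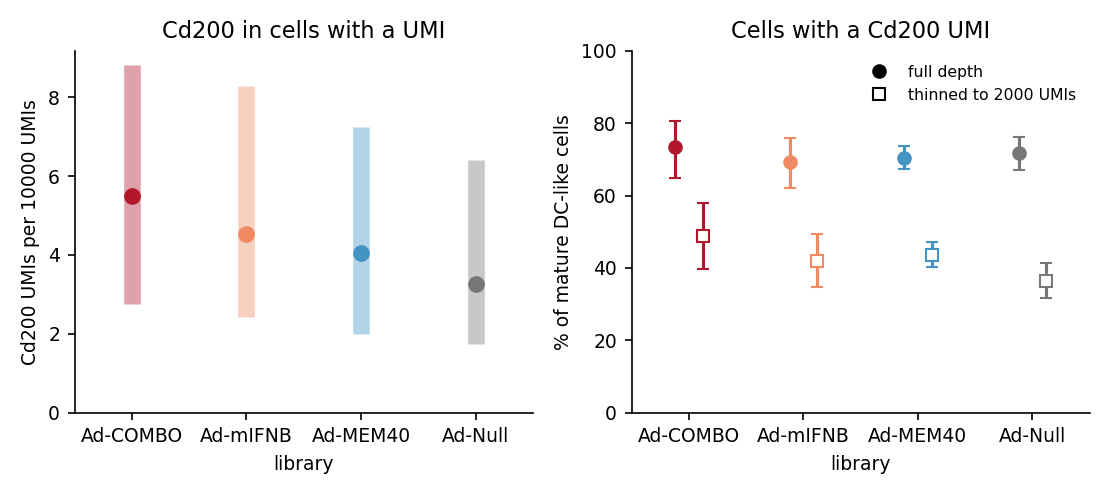
Cd200 in mature DC-like cells by library. Left, UMIs of Cd200 per 10000 UMIs in cells with at least 1, as median (point) and quartiles (bar). Right, percent of cells with a UMI at full depth (filled) and after thinning to 2000 UMIs (open), with exact binomial 95% intervals. The medians are 5.48 in Ad-COMBO and 3.28 in Ad-Null, while the full-depth shares lie between 69.3% and 73.3%.

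Among mature DC-like cells, Cd200 was higher in those that also read Cd70, Fas or Il12b, though for Il12b the counting intervals overlap in Ad-COMBO. In cells with a UMI of Cd70, the ligand of the T cell costimulatory receptor CD27, Cd200 was 758 CPM against 380.2 in cells without in Ad-COMBO. The same pair was 434 and 337 CPM in Ad-mIFNB, 526 and 271 in Ad-MEM40, and 432 and 250 in Ad-Null. Cells with a UMI of Fas, the death receptor, had 640 CPM of Cd200 against 411 without in Ad-COMBO, 480.1 and 281 in Ad-mIFNB, 402 and 295 in Ad-MEM40, and 381 and 208 in Ad-Null. Each library thus showed the same direction for Cd70 and for Fas. Median depth moved with the Fas split in all 4 libraries, with 10317 UMIs in cells with Fas against 8545 without in Ad-COMBO and 13332 against 12050 in Ad-Null, and its part in the result was not tested. Depth moved with the Cd70 split in 3 libraries, with 9390 UMIs in cells with it against 9100 in cells without in Ad-COMBO, 12367 against 10982 in Ad-mIFNB and 14213 against 12397 in Ad-Null, and went the other way in Ad-MEM40, with 7104 against 7399. For Il12b the pair was 537 and 499 CPM in Ad-COMBO, where the counting intervals overlap, 448 and 272 in Ad-mIFNB, 369 and 309.5 in Ad-MEM40, and 366 and 231 in Ad-Null. Median depth was higher in the cells with Il12b in all 4 libraries, from 9317 UMIs against 9282 in Ad-COMBO up to 13337 against 9885 in Ad-mIFNB, and its part in either split was not tested. Cells with Aldh1a2, an enzyme of retinoic acid synthesis, showed no common direction, with 626 CPM against 478 in Ad-COMBO, 258 against 387 in Ad-mIFNB, 313 against 339 in Ad-MEM40 and 255 against 299.5 in Ad-Null. The split by Cd274, which encodes the checkpoint ligand PD-L1, had no common direction either. Cd200 was 359 CPM in cells with it and 354 without in Ad-mIFNB, and 339 and 298 in Ad-MEM40. The counting intervals overlap in both of these libraries. In Ad-Null it was 283 and 460.2, where 33 cells were without. Their median depth was 5666 UMIs against 13138 in cells with Cd274, and its part was not tested. Ad-COMBO had too few cells without Cd274 for this split. These splits came from cells of 1 library each and were chosen after earlier results were seen.

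Plasmacytoid DC-like cells (pDC-like, gated on Siglech, Ccr9 and others), the strong type I interferon producers, were the other class with ligand. Cd200 was 58.8 CPM in Ad-COMBO (30.4 to 103, 12 UMIs in 20 cells), 43.3 in Ad-mIFNB (26.8 to 66.1, 43 cells), 46.3 in Ad-MEM40 (35.2 to 59.9, 201 cells) and 85.0 in Ad-Null (73.5 to 97.8, 236 cells). The Ad-Null interval lies within that of Ad-COMBO, so no library is read as the highest. The log2 ratio of Ad-MEM40 to Ad-Null was -0.81 (-1.35 to -0.27), where 3.63% of genes were at least 1.5-fold lower and 3.13% higher. Ad-COMBO and Ad-mIFNB held under 50 pDC-like cells, so no ratio was taken for them. With each cell's own CPM averaged, Cd200 was 54.2 in Ad-COMBO, 82.4 in Ad-mIFNB, 48.3 in Ad-MEM40 and 83.5 in Ad-Null. After thinning, the shares of pDC-like cells with a Cd200 UMI were 20%, 2.38%, 10.2% and 11.4%, in that library order. The intervals of these shares all overlap. Markers of mature DCs summed to 213 CPM in the pDC-like cells of Ad-MEM40 and 243 in those of Ad-Null, with 7 of 8 detected in both and Apol7c at 0. Their part in the result was not tested.

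In the remaining named classes the ligand was low. cDC1-like cells, the cross-presenting DCs, had 3.48 CPM in Ad-COMBO, 6.39 in Ad-mIFNB, 6.00 in Ad-MEM40 and 7.78 in Ad-Null. cDC2-like cells had between 1.47 and 3.82 CPM, macrophage-like cells between 1.36 and 5.30, and melanoma-like cells 1.67 in Ad-MEM40 and 0.739 in Ad-Null, where 1.36% of genes were at least 1.5-fold higher and 0.411% lower. The cDC1-like log2 ratio of Ad-COMBO to Ad-Null was -0.59 (-1.11 to 0.03), on 8 UMIs, with an interval that includes 0, and 6.99% of genes were as much lower and 7.21% higher. In macrophage-like cells Ad-COMBO had 2 Cd200 UMIs, and its log2 ratio to Ad-MEM40 was -0.69 (-1.10 to 0.04), where 4.96% of genes were as much lower. That interval also includes 0.

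Ad-MEM40 lay above Ad-Null by at least 1.5-fold for the ligand in monocyte-like cells and in cells with Itgam and Sirpa alone. Within that limit it was also higher in macrophage-like cells, at 5.30 CPM against 3.08 (log2 ratio 0.35, 0.11 to 0.58). In cells without a gate it was 11.8 against 8.67 (0.30, 0.08 to 0.52). Of all genes, 0.446% and 0.779% were at least 1.5-fold higher in those cells. In pDC-like cells it was lower, and in cDC1-like cells the ratio was -0.22 (-0.52 to 0.10). Monocyte-like cells (Ly6c2, Vcan, F10) held 45 Cd200 UMIs in 19 of 198 cells of Ad-MEM40 (17.5 CPM, 12.8 to 23.5) and 3 UMIs in 96 cells of Ad-Null (1.39 CPM, 0.286 to 4.05). The log2 ratio was 1.82 (0.97 to 2.43), and 4.33% of genes were at least 1.5-fold higher. Cells with Itgam and Sirpa but no gate had 8.91 CPM in Ad-MEM40 and 2.26 in Ad-Null, a log2 ratio of 0.94 (0.31 to 1.49), where 3.27% of genes were as much higher. Both levels lay far under the 336 CPM of mature DC-like cells of Ad-MEM40. Summed mature DC markers were 124 CPM in monocyte-like cells of Ad-MEM40 against 132 in Ad-Null, and 135 against 127 in the Itgam Sirpa cells. Macrophage markers, 8 of 8 detected in both libraries, summed to 792 CPM in the Itgam Sirpa cells of Ad-MEM40 against 424 in Ad-Null, and the part of either marker list in the result was not tested.

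Cells without a gate also differed in Ad-COMBO. Their Cd200 was 32.9 CPM in Ad-COMBO (24.7 to 42.9), 7.49 in Ad-mIFNB, 11.8 in Ad-MEM40 and 8.67 in Ad-Null. Against Ad-Null the log2 ratio was 1.47 (1.00 to 1.93), where 9.73% of genes were higher. In these cells the mature DC markers, 8 of 8 detected in both libraries, summed to 448 CPM in Ad-COMBO and 189 in Ad-Null, and median depth was 4549 and 7353 UMIs. Their part in the result was not tested.

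**Figure D3:**
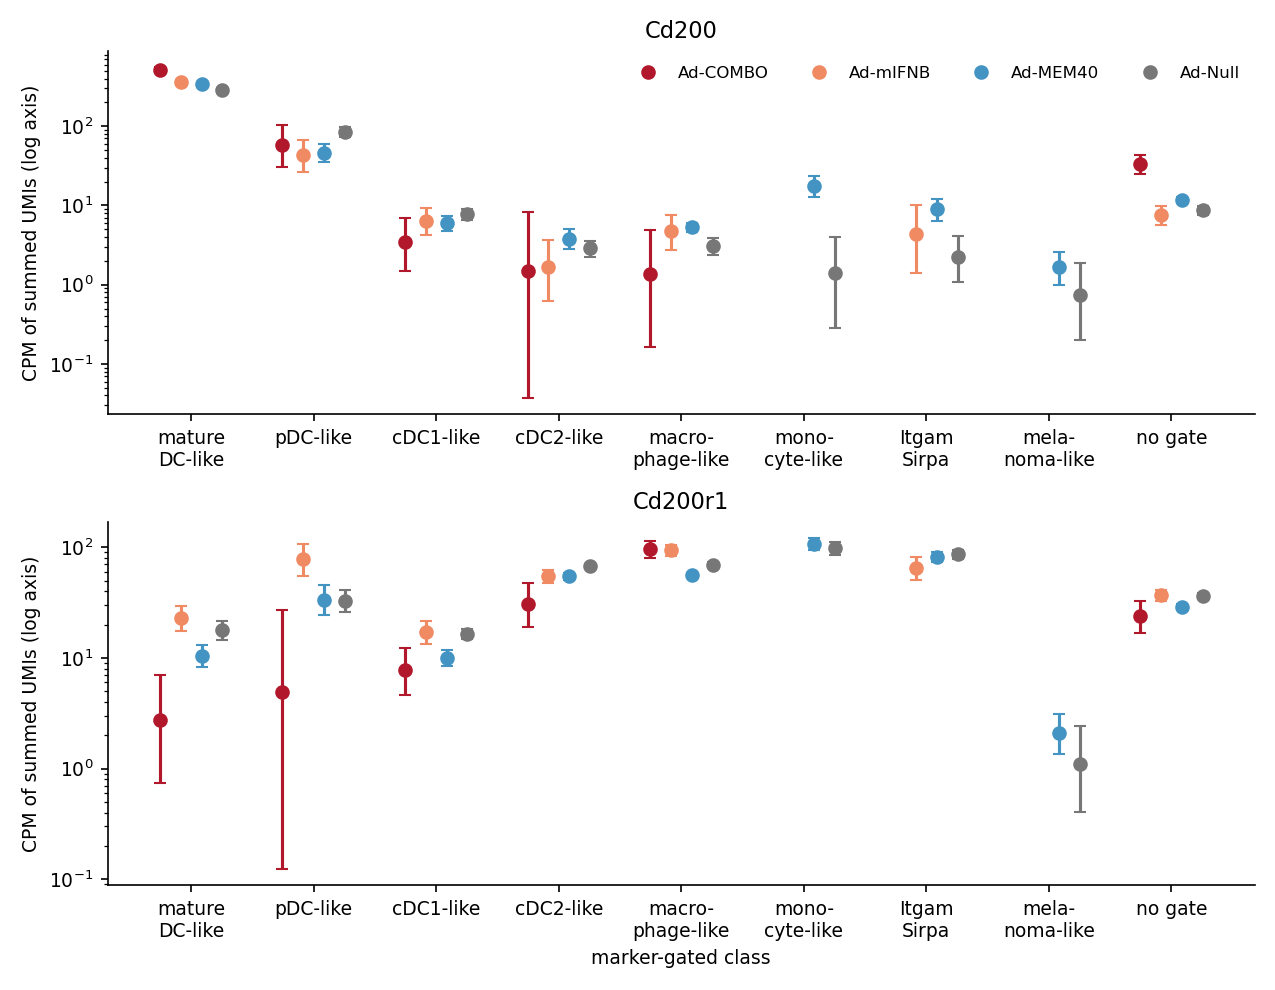
CPM of Cd200 (top) and Cd200r1 (bottom) by marker-gated class on a log axis, 1 point per library with at least 20 cells and 1 UMI in the class, with exact Poisson 95% intervals. Cd200 is highest in mature DC-like cells (289.6 to 516 CPM), and Cd200r1 is low there (2.73 to 22.9 CPM) and higher in macrophage-like cells (56.4 to 95.5 CPM).

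Receptor was read mostly in other cells than the ligand. Macrophage-like cells had 95.5 CPM of Cd200r1 in Ad-COMBO (80.4 to 113), 93.6 in Ad-mIFNB (83.8 to 104), 56.4 in Ad-MEM40 (54.2 to 58.7) and 69.7 in Ad-Null (66.3 to 73.3). The 2 libraries whose label includes mIFNB overlap and lie above Ad-Null, and Ad-MEM40 lies below it. Log2 ratios to Ad-Null were 0.43 for Ad-COMBO (0.12 to 0.72), 0.40 for Ad-mIFNB (0.18 to 0.61) and -0.28 for Ad-MEM40 (-0.40 to -0.16), all within 1.5-fold. In the same cells 6.57%, 3.57% and 0.446% of genes were past it upward and 4.88%, 2.66% and 0.385% downward. Against Ad-mIFNB the ratio of Ad-COMBO was 0.03, with 5.71% of genes past the limit upward and 4.04% downward. Ad-COMBO exceeded Ad-MEM40 by 0.71 (0.42 to 0.99), past 1.5-fold as were 6.01% of genes. That ratio was 0.51 with each cell's own CPM averaged, inside the limit.

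The share of macrophage-like cells with a Cd200r1 UMI was 53.0% in Ad-COMBO, 54.0% in Ad-mIFNB, 34.9% in Ad-MEM40 and 47.9% in Ad-Null. In melanoma-like cells it was 6.61% in Ad-MEM40 and 8.57% in Ad-Null. After thinning to 2000 UMIs the macrophage-like shares were 6.41% (2.11 to 14.3), 12.6% (8.30 to 18.0), 8.76% (7.86 to 9.74) and 11.5% (9.81 to 13.3), in that library order. Ad-COMBO rests there on 5 positive cells of 78 and goes against its CPM, so no order is read from these shares. Cells with a UMI of Folr2, a marker of tissue-resident macrophages that is also one of the gate's markers, had 93.9 CPM of Cd200r1 against 97.4 without it in Ad-COMBO, 100.2 and 87.7 in Ad-mIFNB, 60.4 and 53.3 in Ad-MEM40, and 73.4 and 67.9 in Ad-Null. Receptor was thus read on either side of this split, with no common direction.

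Other myeloid classes also carried receptor. Monocyte-like cells had 107 CPM in Ad-MEM40 (94.9 to 121) and 98.5 in Ad-Null (85.7 to 113), which overlap. Cells with Itgam and Sirpa but no gate had 64.9 CPM in Ad-mIFNB, 81.3 in Ad-MEM40 and 86.1 in Ad-Null. In cDC2-like cells, DCs that mainly present to CD4 T cells, the level was 31.0 CPM in Ad-COMBO (19.2 to 47.3, 34 cells), 54.5 in Ad-mIFNB (47.1 to 62.8), 54.5 in Ad-MEM40 (50.7 to 58.6) and 67.6 in Ad-Null (64.5 to 70.9). The log2 ratio to Ad-Null was -0.29 for both Ad-mIFNB and Ad-MEM40, within 1.5-fold, where 1.91% and 0.433% of genes were past it downward and 2.77% and 0.308% upward.

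cDC1-like and mature DC-like cells carried little receptor. In cDC1-like cells Cd200r1 was 7.84 CPM in Ad-COMBO (4.65 to 12.4), 17.1 in Ad-mIFNB (13.3 to 21.5), 9.95 in Ad-MEM40 (8.38 to 11.7) and 16.6 in Ad-Null (14.9 to 18.4). Ad-COMBO and Ad-MEM40 form the lower pair and Ad-mIFNB and Ad-Null the upper, with overlap inside each pair. The log2 ratio of Ad-COMBO to Ad-Null was -0.75 (-1.28 to -0.19), past 1.5-fold as were 6.99% of genes, and to Ad-mIFNB -0.78 (-1.46 to -0.08), past it as were 3.32%, with 4.01% higher. With 20 CPM added these were -0.39 and -0.41, within the limit. Against Ad-MEM40 it was -0.22, where 5.95% of genes were higher and 7.5% lower. The ratio of Ad-MEM40 to Ad-Null, -0.53, was within 1.5-fold where 0.368% of genes were lower, and under 4 other settings it lay between -0.59 and -0.68, past the limit. Ad-mIFNB stood at 0.03 to Ad-Null, where 2.37% of genes were lower and 3.28% higher. Cycling cells, those with at least 3 UMIs of 2 of Mki67, Top2a, Cenpf and Birc5, had 14.2 CPM against 18.4 in the others in Ad-mIFNB (8.70 to 22.0 and 13.8 to 24.2) and 8.45 against 11.2 in Ad-MEM40 (6.35 to 11.0 and 8.96 to 13.8), where the intervals overlap, and 12.2 against 20.6 in Ad-Null (10.1 to 14.6 and 18.0 to 23.5), where they do not. Cycling cells were also deeper, with 30414 median UMIs against 20744 in Ad-Null, and the part of depth was not tested.

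In mature DC-like cells, where the ligand peaks, the receptor of the mixture was close to the limit of detection. Ad-COMBO had 4 Cd200r1 UMIs in 2 of 131 cells, or 2.73 CPM (0.743 to 6.98), where 3 UMIs correspond to 2.04 CPM. Ad-mIFNB had 22.9 CPM (17.4 to 29.7), Ad-MEM40 10.5 (8.21 to 13.2) and Ad-Null 17.7 (14.5 to 21.6). The interval of Ad-COMBO lies below the other 3, while Ad-mIFNB and Ad-Null overlap. Log2 ratios of Ad-COMBO were -1.56 to Ad-Null (-2.21 to -0.70), -1.85 to Ad-mIFNB (-2.59 to -0.90) and -1.0 to Ad-MEM40 (-1.66 to -0.14). Among genes of these cells, 11.7%, 10.2% and 11.1% were as much lower in the same comparisons. With 20 CPM added the last ratio was -0.42, within the limit. Ad-MEM40 against Ad-Null gave -0.56 (-1.01 to -0.10), within 1.5-fold where 0.835% of genes were lower, and under 4 other settings it lay between -0.59 and -0.80, past it. Ad-mIFNB gave 0.30 (-0.24 to 0.83).

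Summed markers of classes that carried receptor did not all move with the receptor. Summed macrophage markers in mature DC-like cells were 81.8 CPM in Ad-COMBO (7 of 8 detected, Lyve1 at 0), 90.6 in Ad-mIFNB (6 of 8, Folr2 and Lyve1 at 0), 320.1 in Ad-MEM40 (8 of 8) and 185 in Ad-Null (7 of 8, Lyve1 at 0). Summed cDC2 markers were 130.1 CPM in Ad-COMBO (7 of 8, Cd209a at 0), 259.5 in Ad-mIFNB (8 of 8), 278 in Ad-MEM40 (8 of 8) and 303 in Ad-Null (7 of 8, Clec4a4 at 0). Summed monocyte markers were 1034 CPM in Ad-COMBO, 1770.4 in Ad-mIFNB, 791 in Ad-MEM40 and 719 in Ad-Null. Ad-COMBO had the lowest macrophage and cDC2 sums, while its monocyte sum was above those of Ad-MEM40 and Ad-Null. Ad-MEM40 had the highest macrophage sum. Their part in the result was not tested.

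Cells that read both genes were mostly cells with many UMIs. Among mature DC-like cells, both were read in 0 of 131 of Ad-COMBO (at most 2.78% by the exact binomial interval), 13 of 189 of Ad-mIFNB (6.88%), 39 of 841 of Ad-MEM40 (4.64%) and 40 of 403 of Ad-Null (9.93%). The double-positive cells had a median of 19878 UMIs in Ad-mIFNB against 9846 in those with Cd200 alone, 13487 against 7208 in Ad-MEM40 and 20779 against 11779 in Ad-Null. In cells that met the mature gate and another gate, both genes were read in 26.1% of Ad-COMBO, 27.9% of Ad-mIFNB, 28.3% of Ad-MEM40 and 41.1% of Ad-Null. Their median depth was between 20740 and 35816 UMIs. In Ad-MEM40, 446 cells met the mature and macrophage gates alone, and they had 116 CPM of Cd200 and 31.7 of Cd200r1, and 33.0% of them were called doublets. The same combination had 92 cells in Ad-Null, with 159 CPM of Cd200, 40.7 of Cd200r1 and 10.9% called doublets. Doublets were called by an automatic threshold in Ad-MEM40 and by a set share of highest scores in Ad-Null. The doublet shares of these libraries are thus not comparable. Cells that met the mature gate and another gate entered no level of a single-gate class above. They did enter the values over all cells, those given for cells of several gates, and the ratios that counted every cell meeting the mature gate.

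The ratio of the genes' UMIs lay on the same side in every library for mature DC-like cells, and for macrophage-like, cDC2-like and cDC1-like cells wherever it is given, but not for pDC-like cells. Since UMIs come from transcript ends and are not scaled to length, it is used only to compare classes. Mature DC-like cells had 189.5 Cd200 UMIs per Cd200r1 UMI in Ad-COMBO, 15.6 in Ad-mIFNB, 32.1 in Ad-MEM40 and 16.3 in Ad-Null. pDC-like cells had 1.38 in Ad-MEM40 and 2.58 in Ad-Null, while the 43 of Ad-mIFNB held more receptor than ligand, 38 UMIs against 21. Their Cd200r1 level was 4.90 CPM in Ad-COMBO (0.124 to 27.3, 1 UMI in 20 cells), 78.3 in Ad-mIFNB (55.4 to 107, in 8 cells), 33.6 in Ad-MEM40 (24.2 to 45.4) and 33.0 in Ad-Null (25.96 to 41.2). Macrophage-like cells had the reverse, 19.7 receptor UMIs per ligand UMI in Ad-mIFNB, 10.6 in Ad-MEM40 and 22.7 in Ad-Null, and cDC2-like cells had 32.2, 14.3 and 23.5. cDC1-like cells lay between, with 2.25, 2.67, 1.66 and 2.13 receptor UMIs per ligand UMI in Ad-COMBO, Ad-mIFNB, Ad-MEM40 and Ad-Null.

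The difference over all cells was then recomputed with the class makeup or the class levels held fixed. Mature DC-like cells were 19.5% of cells in Ad-COMBO (16.6 to 22.7), 10.4% in Ad-mIFNB (9.07 to 11.9), 5.37% in Ad-MEM40 (5.02 to 5.74) and 4.61% in Ad-Null (4.18 to 5.07), shares that the CD11c and MHC-II sort and the depth of each library can set. With the classes of Ad-COMBO weighted as in Ad-Null, the Cd200 log2 ratio was 0.75 in place of 1.85. With the class levels of Ad-Null and the makeup of Ad-COMBO it was 1.08. For Ad-mIFNB the pair was 0.15 and 0.57, so the makeup value was the larger and neither alone passed 1.5-fold. For Ad-MEM40 it was 0.12 and 0.02. For Cd200r1 the pair was -0.15 and -0.31 in Ad-COMBO, 0.19 and -0.15 in Ad-mIFNB, and -0.26 and -0.03 in Ad-MEM40, opposite in sign in Ad-mIFNB, where the measured ratio was -0.01. The pair need not add up to the measured ratio. The classes held fixed include cells of several gates and cells without a gate, which can themselves mix cell types. In cells that met the mature gate and another gate, summed mature DC markers were 2862 CPM in Ad-COMBO and 2034 in Ad-Null. In cells without a gate they were 448 and 189. A ratio at fixed makeup can therefore still hold a change of mix inside these classes, and its part in the result was not tested.

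**Figure D4:**
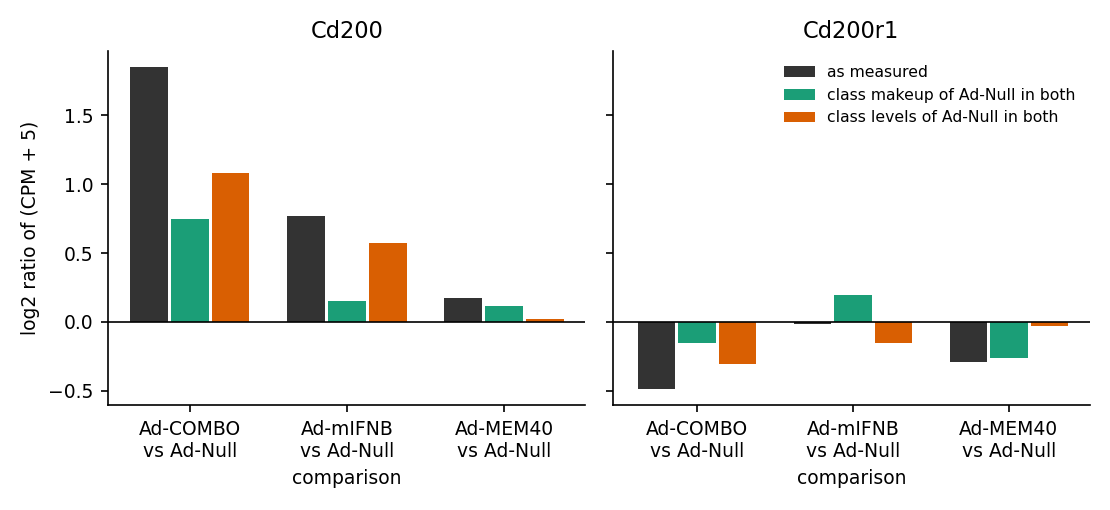
Log2 ratios of (CPM + 5) to Ad-Null over all passing cells for Cd200 (left) and Cd200r1 (right): as measured (dark), with the class makeup of Ad-Null in both libraries (green) and with the class levels of Ad-Null in both (orange). For Cd200 in Ad-COMBO the bars are 1.85, 0.75 and 1.08, and for Cd200r1 in Ad-mIFNB the green and orange bars have opposite signs.

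The other genes of the pathway were read from a list of 8, the receptor paralogues Cd200r2, Cd200r3 and Cd200r4 and the signalling genes Dok1, Dok2, Rasa1, Inpp5d and Crkl. Over all cells, 1 of 8 was higher and 1 lower in Ad-COMBO than in Ad-Null, 0 higher and 1 lower in Ad-mIFNB, and 0 of 8 past 1.5-fold in Ad-MEM40. Of all genes, 5.98% were higher and 3.22% lower in Ad-COMBO, 2.65% and 1.41% in Ad-mIFNB, and 0.776% and 0.34% in Ad-MEM40. The list medians were 0.15, 0.06 and 0.05 on the log2 scale, and those of all genes were -0.01, -0.02 and 0.02. The gene that was higher was Cd200r4, and the one that was lower was Dok2.

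Cd200r4 and Cd200r3 encode paralogues that pair with the activating adaptor DAP12 in mice. In macrophage-like cells Cd200r4 was 73.0 CPM in Ad-COMBO (59.8 to 88.2), 51.7 in Ad-mIFNB (44.5 to 59.7), 20.2 in Ad-MEM40 (18.9 to 21.6) and 25.3 in Ad-Null (23.2 to 27.5). The libraries with mIFNB in the label were higher and do not overlap Ad-Null, by 1.37 (1.00 to 1.72) and 0.90 (0.61 to 1.20) on the log2 scale, and Ad-MEM40 was lower by a ratio of -0.26. Cd200r3 had 10.9 CPM in Ad-COMBO (16 UMIs), 11.2 in Ad-mIFNB (40 UMIs), 2.58 in Ad-MEM40 and 4.70 in Ad-Null, with log2 ratios of 0.71, 0.74 and -0.36. In those cells Cd200r4, Cd200r3 and Cd200r1 thus had the same order of Ad-MEM40 below Ad-Null below the libraries with mIFNB, with the paralogues past 1.5-fold and Cd200r1 not. Cd200r3 was also at 14.2 CPM in mature DC-like cells of Ad-mIFNB (36 UMIs), against 1.93 in Ad-Null, a log2 ratio of 1.47. Cd200r2 had between 2 and 22 UMIs per library and could not be read at this depth.

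**Figure D5:**
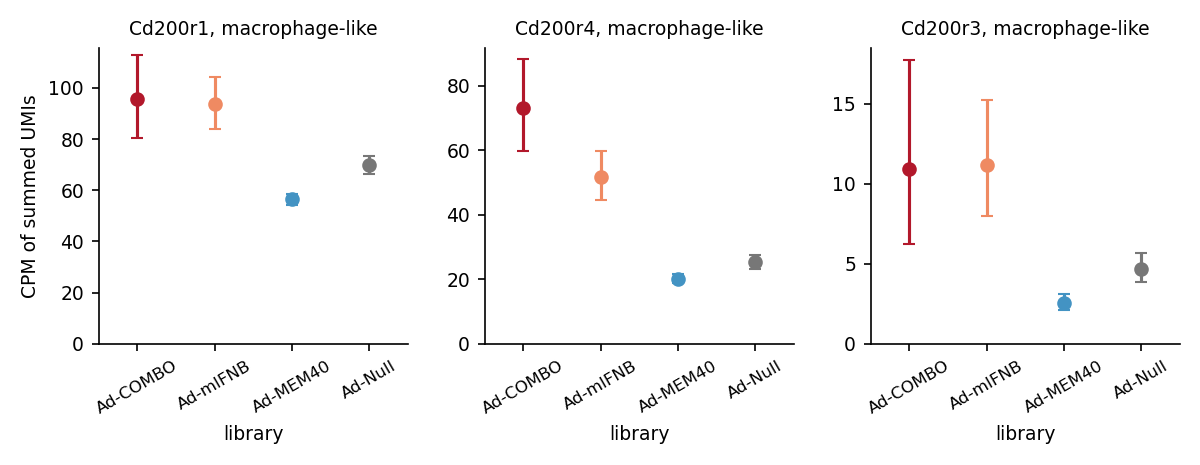
CPM of Cd200r1, Cd200r4 and Cd200r3 in macrophage-like cells, 1 point per library with exact Poisson 95% intervals, each panel with its own axis from 0. In all 3 panels Ad-COMBO and Ad-mIFNB lie above Ad-Null and Ad-MEM40 lies below it.

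Dok2, the adaptor that starts CD200R1 signalling, was lower over all cells of the libraries with mIFNB in the label. It had 41.2 CPM in Ad-COMBO, 54.8 in Ad-mIFNB, 86.9 in Ad-MEM40 and 86.7 in Ad-Null, log2 ratios of -0.99 (-1.14 to -0.84), -0.62 (-0.71 to -0.53) and 0.00. Within macrophage-like cells it was level, at 126, 134, 134 and 126 CPM in the same order. In cDC2-like cells it was lower in Ad-mIFNB, at 61.6 CPM against 102 in Ad-Null (log2 ratio -0.68, -0.92 to -0.45), where 1.91% of genes were as much lower. In cDC1-like cells, with 1 and 7 UMIs, the ratio was -0.92 for Ad-COMBO and -0.63 for Ad-mIFNB, past the limit as were 6.99% and 2.37% of genes. In cells with no gate it was -1.67 for Ad-COMBO and -0.82 for Ad-mIFNB. Dok1 was within 1.5-fold over all cells (50.7, 49.3, 42.3 and 33.4 CPM), as were Inpp5d, Rasa1 and Crkl. In mature DC-like cells of Ad-COMBO, Inpp5d was lower (23.8 CPM against 56.8 in Ad-Null, log2 ratio -1.10, -1.66 to -0.55) and Dok2 had 6 UMIs (4.09 CPM against 15.3, log2 ratio -1.16). Those were 2 of the 5 list genes with enough UMIs there, beside the 11.7% of all genes, and the list median was -0.10 against 0.00 for all genes.

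Regulatory genes of mature DCs were followed in a second list of 6, Cd274, Pdcd1lg2, Fas, Socs1, Socs2 and Aldh1a2. In mature DC-like cells 3 of 6 passed the limit upward in Ad-COMBO against Ad-Null, 1 in Ad-mIFNB and 0 in Ad-MEM40, where 1 was lower. Over all genes in these cells, 11.5% were as much higher in Ad-COMBO, 5.51% in Ad-mIFNB and 1.81% in Ad-MEM40, where 0.835% were lower. Cd274, which encodes the checkpoint ligand PD-L1, had 1016 CPM in Ad-COMBO, 561 in Ad-mIFNB, 611 in Ad-MEM40 and 479 in Ad-Null, a log2 ratio of 1.08 for Ad-COMBO (0.95 to 1.20). Socs1, a feedback inhibitor of interferon receptor signalling, had 154, 81.1, 65.5 and 50.6 CPM in the same order, with ratios of 1.52 for Ad-COMBO and 0.63 for Ad-mIFNB. Aldh1a2 was higher in Ad-COMBO (68.1 CPM against 40.6, log2 ratio 0.68) and lower in Ad-MEM40 (18.8 CPM, -0.94). The list median was 0.62 for Ad-COMBO, 0.12 for Ad-mIFNB and 0.04 for Ad-MEM40, against 0.00 for all genes in each. Cd200, at 0.82 in these cells of Ad-COMBO, lay below Socs1 and Cd274 and above Aldh1a2, Pdcd1lg2 (0.55, 117 CPM against 77.8), Fas (0.46) and Socs2 (0.45).

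Genes whose level ran most like each member were taken over the 24 sums of a class in a library with at least 50 cells, among 9893 genes. The points share 4 libraries, and the classes differ in depth, so the coefficients are descriptions. Closest to Cd200 were Foxp4, a forkhead transcription factor (Pearson r = 0.96), Tm4sf5 (0.95), Slc22a23, Il12rb2, the second chain of the interleukin-12 receptor (0.94), Tbc1d1, Spsb1, Stat3, Sbds, Ddx6 and Fut8 (0.92). Their Spearman rho was lower, 0.49 to 0.79, and 1 of the 10 remained among the 10 closest by rank. The 4 mature DC-like points stand far above the rest for Cd200. Closest to Cd200r1 were Pycard, the inflammasome adaptor ASC (0.96), Milr1, an inhibitory immunoglobulin-like receptor of mast cells (0.95), Cd300lf, another inhibitory receptor of myeloid cells (0.94), Dok2 (0.93), Lcp2, Mtss1, Vsir, the checkpoint molecule VISTA, Gpx1, Dnm2 and Pfkfb4 (0.92). By rank Dok2 was the second closest of all genes (rho = 0.95), and 2 of the 10 remained. Between Cd200 and Cd200r1 themselves r was -0.34 and rho -0.22.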

How the data were processed

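The deposited matrices hold UMI counts per gene and barcode, per the file headers, and every value is a whole number. The submitters' processing notes list Cell Ranger 3.0, Seurat 4.0 and the build mm10 without roles, while the matrix headers carry Cell Ranger 6.0.0. Loading aimed at up to 10000 cells a sample, per the labels, against 18185 barcodes in Ad-MEM40. The 2 genes, the gene lists and the splits were chosen with earlier results of these data known.

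Barcodes passed with at least 500 genes and at most 10% mitochondrial UMIs. Cells were assigned by marker gates as stated above. UMIs were summed per library or class and given as CPM (Python 3.11.15, numpy 2.4.6, scipy 1.17.1). Each log2 ratio was taken after adding 5 CPM to either library, and its bounds set the upper Poisson bound of one library against the lower bound of the other. Classes needed 50 cells in both libraries, and genes counted as past 1.5-fold needed 20 UMIs over both. Levels have exact Poisson intervals and shares exact Clopper-Pearson intervals. The counting step was tested on simulated counts.

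Doublets stayed in the values. Scrublet (scanpy 1.11.5) marked 2 cells of Ad-COMBO, 2 of Ad-mIFNB and 2161 of Ad-MEM40 (13.8%). In Ad-Null its automatic threshold marked 0, so the expected share of highest scores, 612 cells (7.00%), was taken. The marks served an alternative and the doublet shares given. Named genes were the members, the lists, the markers and the 10 genes most alike to each member with at least 200 UMIs and 10 CPM in 1 sum. Mitochondrial, ribosomal protein, haemoglobin, receptor segment, Xist, Y-linked and unnamed genes were left out of the last. Alternatives changed the cell filter, doublets, scaling, averaging, added CPM, gates and class makeup. Positions come from GENCODE M21.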

Additional observations from a re-analysis of the deposited data

How the results depend on the processing

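Of 280 values of 30 log2 ratios recomputed under other settings, 258 kept their side of 1.5-fold, 237 moved by less than their counting interval and 0 of the called ratios changed sign. No paired analysis was possible because each treatment has 1 library.

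For Cd200 over all cells, Ad-COMBO against Ad-Null (1.85) became 0.75 with the makeup and 1.08 with the class levels of Ad-Null, 2.04 with each cell's CPM averaged, 2.01 with 1 CPM added and 1.45 with 20. Ad-mIFNB (0.77) became 0.15, 0.57, 0.88 and, with 20 CPM added, 0.55. The values with Ad-Null's makeup or levels, and that with 20 CPM, lay within 1.5-fold. Ad-MEM40 (0.17) became 0.019 with the class levels of Ad-Null, 0.28 with cell averages and 0.089 without doublets. In mature DC-like cells, 1 more marker per gate gave 1.05 for Ad-COMBO, 0.54 for Ad-mIFNB and 0.37 for Ad-MEM40. Counting every cell that met the mature gate, a set whose share of cells of several gates differed between libraries, gave 1.41 for Ad-COMBO and 0.71 for Ad-mIFNB, now past the limit. Gates on cells thinned to 5000 UMIs gave 0.55 for Ad-mIFNB, and gates at 2 UMIs 0.081 for Ad-MEM40. These last 3 gate settings, and the use of Ad-Null's class levels, were chosen after seeing the data.

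For Cd200r1 over all cells, Ad-COMBO (-0.49) became -0.86 with cell averages, past the limit, -0.15 with Ad-Null's makeup and -0.31 with its levels. Ad-mIFNB (-0.01) became -0.17, 0.19 and -0.15, and Ad-MEM40 (-0.29) -0.031 with Ad-Null's levels and -0.22 with 20 CPM added. In macrophage-like cells no alternative moved the ratios to Ad-Null out of their intervals. The causes were not tested. With 1 CPM added, 1667 genes were higher and 1148 lower in Ad-COMBO than in Ad-Null (925 and 498), 691 and 589 in Ad-mIFNB (414 and 221) and 431 and 120 in Ad-MEM40 (130 and 57).

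Depth limits the receptor in mature DC-like cells of Ad-COMBO (4 UMIs) and all classes of under 50 cells there.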
